A study of Sus scrofa with 12 samples.

Results

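The genes described here were 10 pig acute phase genes, taken from the liver mRNA tables by their symbols: SAA4, CRP, HP, ITIH4, LBP, ORM1, LCN2 and the fibrinogen chain genes FGA, FGB and FGG. All 10 were found among the 31694 gene rows of each table, and all 10 passed the filter on low values. Liver was collected from 3 Jinhua (JH) and 3 Landrace (LD) pigs, all uncastrated males at 70 days, and 6 mRNA and 6 small RNA libraries were sequenced. No treatment was named for either breed. The labels mark JH as the experiment group and LD as the control group, and name no other difference between them. JH comes from China and Landrace from Denmark, and Landrace has been bred for meat.

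Acute phase proteins are plasma proteins that hepatocytes make and whose blood level moves during infection, injury or stress. Interleukin 6 acts through STAT3, and interleukin 1 and tumor necrosis factor act through NF-kB and C/EBP factors, to change the transcription of their genes in hepatocytes. In pigs, haptoglobin, CRP, serum amyloid A and ITIH4 (pig major acute phase protein) are measured in blood as signs of inflammation and poor health. Fibrinogen is built from pairs of 3 chains, encoded by FGA, FGB and FGG, which stand next to each other in the genome. It is both an acute phase protein and the precursor of the fibrin clot.

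Expression was given as RPKM, the reads of a gene per kilobase of its length, scaled to the reads of the library, so that levels can be compared between genes. The total that the values were divided by, recovered from the steps between low values, ranged from 5744908 to 7914514 reads per library. In each library this was below the number of reads that the paper reported after filtering, and the reason was not tested. Values of 0 need care, since 12080 of 31692 genes were listed at 0 in all 6 libraries, among them genes that liver is known to use, such as APOB. RN18S, a ribosomal RNA gene, lay between 1570 and 62257 RPKM. Leaving it out raised the share of the 10 acute phase genes in the summed RPKM most in JH3, from 3.35% to 3.75%. In LD3, with the next largest shift, the share rose from 4.07% to 4.22%. Hepatocyte markers were present at a high level, with ALB between 27533 and 53893 RPKM. The summed level of 9 hepatocyte markers was 38517 to 46621 RPKM in JH and 49330 to 66448 RPKM in LD, and most of that sum was ALB. Without ALB the sums were 10985 to 13022 RPKM in JH and 11588 to 14144 RPKM in LD and overlapped. Of the 8 tested hepatocyte markers 4 were above 0 and 4 below in log2FC (median -0.04), from -0.67 for ALB to 1.14 for ARG1. Limma called none of the 8, and 2 were at p below 0.05 without adjustment, against 17.9% of all tested genes. In whole liver, fewer cells of a type and less RNA per cell cannot be told apart.

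The breeds were compared with limma on log2(RPKM + 0.1) over the 12991 genes that reached 0.5 RPKM in 3 or more libraries. The difference is given as log2FC, the log2 fold change of JH relative to LD, with its standard error (SE). A gene was called where the adjusted p was below 0.05 and log2FC was above 1 or below -1. None of the 10 acute phase genes was called, while 2.39% of all tested genes (310) were, 1.02% higher and 1.36% lower in JH. The fold limit removed no gene from these calls. By limma p without adjustment, 3 of the 10 were below 0.05, SAA4 and LBP on the lower side in JH and LCN2 on the higher side. Of all tested genes 17.9% were, 8.34% higher and 9.51% lower. The median log2FC of the 10 genes was -0.07, with 4 above 0 and 6 below, and the median of all tested genes was 0.04. The values of the breeds did not overlap in SAA4, LBP and FGA, each lower in JH. Among all tested genes 23.4% did not overlap, 10.8% with JH higher and 12.5% with JH lower. With 3 pigs against 3 an exact permutation test cannot give a p below 0.1.

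**Figure D1:**
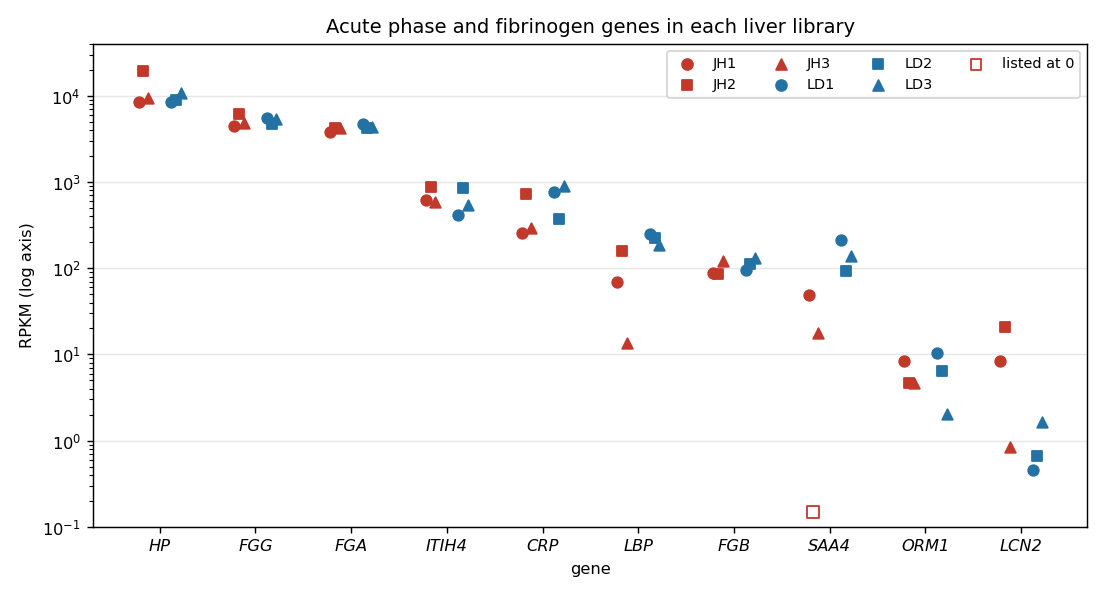
Level of each of the 10 genes in each library, in RPKM on a log axis, with JH in red and LD in blue and 1 symbol per replicate number. FGG and FGA sit close together across pigs, HP does except for JH2, while LBP, SAA4 and LCN2 spread widely among the JH pigs, and the open square marks SAA4 in JH2, listed at 0.

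Haptoglobin, encoded by HP, binds free hemoglobin and keeps its iron from bacteria. HP had the highest level of the 10 genes and the fifth highest mean of all genes. Its level was 8464 RPKM in JH1, 19301 in JH2 and 9512 in JH3, and 8417 in LD1, 9067 in LD2 and 10727 in LD3. JH2 stood apart, at 1.80 times the highest LD library, and the other JH pigs lay within the range of LD. Its log2FC was 0.31 (SE 0.35, adjusted p = 0.691), with a 95% interval from -0.48 to 1.1. Without JH2 it was -0.06 (adjusted p = 0.945), so the direction rested on that library. HP alone made up 1.99% ± 0.895 (SD, n = 3) of the summed RPKM in JH and 1.69% ± 0.233 (SD, n = 3) in LD.

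ITIH4 belongs to the inter-alpha-trypsin inhibitor heavy chains, and in pigs it is among the proteins that rise most in inflammation. Its level was 626 RPKM in JH1, 879 in JH2 and 586 in JH3. In LD it was 420 RPKM in LD1, 844 in LD2 and 540 in LD3. The ranges overlapped over most of their length, and the highest JH and LD values were close to each other. Its log2FC was 0.25 (SE 0.32, adjusted p = 0.725, 95% interval from -0.46 to 0.96). Between 6506 and 14867 recovered reads stood behind each ITIH4 value.

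CRP is a pentraxin, a ring of 5 like subunits that binds phosphocholine on bacteria and damaged cells. Its level was 257 RPKM in JH1, 730 in JH2 and 293 in JH3, and 777 in LD1, 374 in LD2 and 893 in LD3. In each breed 1 pig was apart from the other 2, JH2 on the high side and LD2 on the low side. The JH pigs had a mean of 427 ± 263 (SD, n = 3) and the LD pigs of 681 ± 272 (SD, n = 3), and the difference was about as large as the spread in either breed. Its log2FC was -0.75 (SE 0.46, adjusted p = 0.437, 95% interval from -1.78 to 0.29). It was -1.22 without JH2 and -1.13 without LD2 (adjusted p = 0.214 and 0.33), both with p below 0.05 without adjustment in limma, and -0.46 without JH1 (adjusted p = 0.741). In the RefSeq annotation of the later assembly Sscrofa11.1 a second gene of the symbol CRP lies beside the first, so reads may be divided between copies and the level is uncertain. APCS, the other short pentraxin and a near neighbour of CRP in that annotation, was at 71.2, 10.4 and 6.80 RPKM in JH and 394, 84.1 and 181 RPKM in LD. Every JH value of APCS was below every LD value, and its log2FC of -3.39 (SE 0.83, adjusted p = 0.0743) did not pass the threshold.

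SAA4 encodes a serum amyloid A protein, a small apolipoprotein carried on high density lipoprotein. Its level was 48.8 RPKM in JH1 and 17.9 in JH3, and it was listed at 0 in JH2. In LD it was 210 RPKM in LD1, 92.6 in LD2 and 139 in LD3. The lowest LD pig was 1.90 times as high as the highest JH pig. The values stand for 243, 0 and 120 recovered reads in JH and 1292, 634 and 954 in LD, for a gene model of 867 bases. Its log2FC was -4.97 (SE 1.85, adjusted p = 0.201, 95% interval from -9.14 to -0.80), and its size depended on the constant added before the logarithm, with -3.84 for a constant of 1 and -6.08 for 0.01. Without JH2 it was -2.23 (adjusted p = 0.0835). The exact permutation p was 0.1, the smallest that the design allows. Every gene whose breeds do not overlap gets this value, FGA among them, so it adds nothing to the lack of overlap. SAA2 and SAA3 lie within 2 genes of SAA4 in Sscrofa11.1 and were not found in the tables under these symbols, so reads from these similar genes may be counted with SAA4.

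LBP encodes the lipopolysaccharide binding protein, which hands bacterial lipopolysaccharide to CD14 and the receptor TLR4. Its level was 68.9 RPKM in JH1, 159 in JH2 and 13.7 in JH3, and 252 in LD1, 222 in LD2 and 185 in LD3. All JH pigs were below all LD pigs, but JH2 came near to LD3, which was 1.16 times as high. The JH pigs covered an 11.6-fold range, from 184 recovered reads in JH3 to 2137 in JH2, and the LD pigs a 1.36-fold range. Its log2FC was -2.03 (SE 0.72, adjusted p = 0.184, 95% interval from -3.65 to -0.41). It was -1.06 (adjusted p = 0.14) without JH3 and -2.82 (adjusted p = 0.069) without JH2. The exact permutation p was 0.1, which follows from the lack of overlap alone.

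LCN2 encodes lipocalin 2, which binds bacterial siderophores and so withholds iron, and which neutrophils store in their granules. Its level was 8.40 RPKM in JH1, 20.8 in JH2 and 0.84 in JH3, against 0.46 in LD1, 0.66 in LD2 and 1.65 in LD3. JH1 and JH2 were 5.10 and 12.6 times as high as LD3, the highest LD library, while JH3 lay within the LD range. The counts behind these values were small, with 74, 247 and 10 recovered reads in JH and 5, 8 and 20 in LD, and read numbers describe counting error only. Its log2FC was 2.60 (SE 0.97, adjusted p = 0.201, 95% interval from 0.43 to 4.78). Without JH3 it was 3.88 and passed the threshold (adjusted p = 0.0141). In that fit JH was represented by 2 pigs, and 406 genes were called in all, against 310 with all libraries. Without JH2 it was 1.64 (adjusted p = 0.432), and without LD1 it was 2.26 (adjusted p = 0.406).

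The summed level of 14 neutrophil markers was 9.85 to 19.8 RPKM in JH and 11.6 to 49.4 RPKM in LD, none of the 8 tested markers was called by limma (0 at p below 0.05 without adjustment), and all 8 had a log2FC below 0. MPO was at most 0.32 RPKM and CSF3R was listed at 0 in all libraries. S100A8, a calprotectin subunit of neutrophils, was at 0.90, 4.01 and 4.02 RPKM in JH and 0.36, 5.58 and 16 RPKM in LD. The neutrophil sum was 9.85 RPKM in JH1, 19.8 in JH2 and 12.7 in JH3, and 11.6 in LD1, 21.4 in LD2 and 49.4 in LD3. Within each breed the library with the highest sum, JH2 and LD3, also had the highest LCN2, and JH1, with the second highest LCN2 of all, had the lowest sum. The part of neutrophils in the LCN2 levels was not tested.

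ORM1 encodes alpha-1-acid glycoprotein, a carrier of basic drugs in plasma. It had a low level, at 8.36, 4.71 and 4.66 RPKM in JH and 10.4, 6.40 and 2.02 RPKM in LD, from 32 to 147 recovered reads per library. The widest range was within LD, where LD1 was 5.12 times LD3. Its log2FC was 0.14 (SE 0.53, adjusted p = 0.919), and the 95% interval from -1.06 to 1.34 leaves room for differences past the limit in either direction.

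The fibrinogen genes FGG and FGA ranked 13 and 18 among all genes by mean level and varied little. FGA, the alpha chain, was at 3841, 4248 and 4251 RPKM in JH and 4761, 4289 and 4395 RPKM in LD. FGG, the gamma chain, was at 4495, 6124 and 4845 RPKM in JH and 5596, 4715 and 5334 RPKM in LD. The highest FGA value in JH was just below the lowest in LD, and the FGG values of the breeds overlapped. The log2FC of FGA was -0.12 (SE 0.24, adjusted p = 0.824, 95% interval from -0.66 to 0.41) and that of FGG was -0.03 (SE 0.26, adjusted p = 0.971, 95% interval from -0.60 to 0.55). Both intervals lie within log2FC of 1 in either direction.

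FGB, the beta chain, was listed far below its partners. Whether reads of FGB were lost in the authors' alignment or counting was not tested, so the FGB values and the ratios to FGB are uncertain as transcript levels. Its level was 87.1, 86.0 and 122 RPKM in JH and 94.7, 111 and 131 RPKM in LD, from 996 to 2069 recovered reads on a gene model of 1991 bases. FGA was 42.8 ± 7.34 (SD, n = 3) times as high as FGB in JH and 40.8 ± 8.58 (SD, n = 3) times in LD. FGG was 54.2 ± 15.9 (SD, n = 3) times as high as FGB in JH and 47.5 ± 10.1 (SD, n = 3) times in LD. The gap was thus present in each of the 6 pigs, between 33.5-fold and 50.3-fold for FGA and between 39.8-fold and 71.2-fold for FGG. For FGA over FGG the JH pigs gave 0.81 ± 0.10 (SD, n = 3) and the LD pigs 0.86 ± 0.044 (SD, n = 3). The ratios of the breeds overlapped. A two-sided exact permutation test of log2 ratios gave p of 0.8, 0.7 and 0.7, each 0.8 after adjustment over the 3 ratios. Since its p cannot fall below 0.1 here, the test does not show that the ratios are equal. The log2FC of FGB was -0.20 (SE 0.25, adjusted p = 0.732). PLRG1, a splicing factor gene that stands next to FGB in Sscrofa11.1, was at 0 to 0.80 RPKM.

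**Figure D2:**
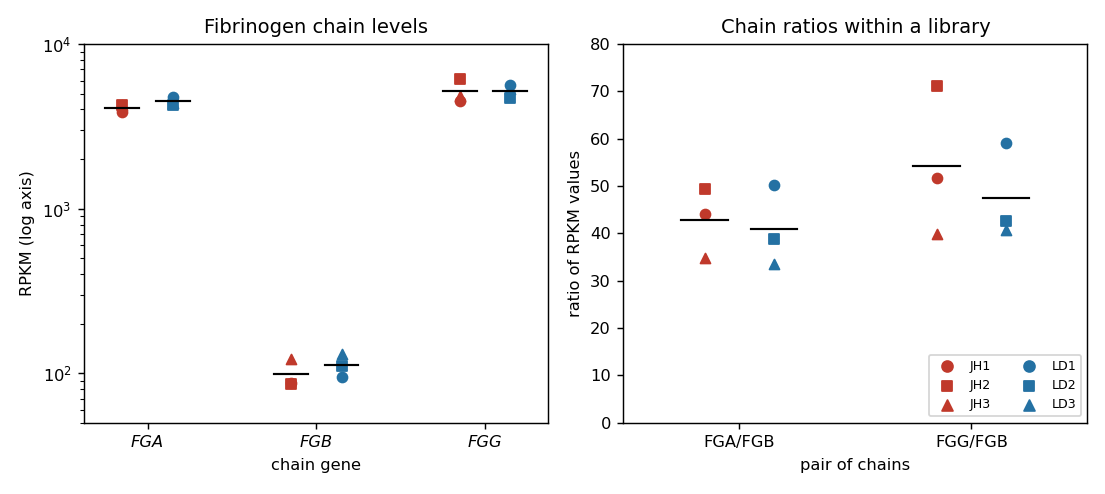
Left, RPKM of the 3 fibrinogen chain genes in each library on a log axis. Right, the ratio of FGA and of FGG to FGB within each library. JH is in red, LD in blue, symbols mark the replicate number and black lines the mean of 3 pigs. FGB lies below the other chains in all 6 pigs, and the ratios of the breeds overlap.

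The 10 genes differed widely in how evenly the pigs of a breed expressed them. The SD of log2(RPKM + 0.1) within JH was 0.084 for FGA, below that of nearly all tested genes (3.59% lay lower), and 0.23 for FGG. It was 1.79 for LBP and 2.30 for LCN2, higher than in 98.4% and 99.4% of tested genes. The SD of SAA4, 4.80 within JH, depends on the library listed at 0. Within LD the SD was 0.079 for FGA, 0.18 for HP and 0.22 for LBP, and the largest was 1.18 for ORM1. The SD was larger in JH than in LD for 8 of the 10 genes, ITIH4 and ORM1 being the exceptions, and for 58.7% of all tested genes. The median SD over all tested genes was 0.39 in JH and 0.33 in LD.

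**Figure D3:**
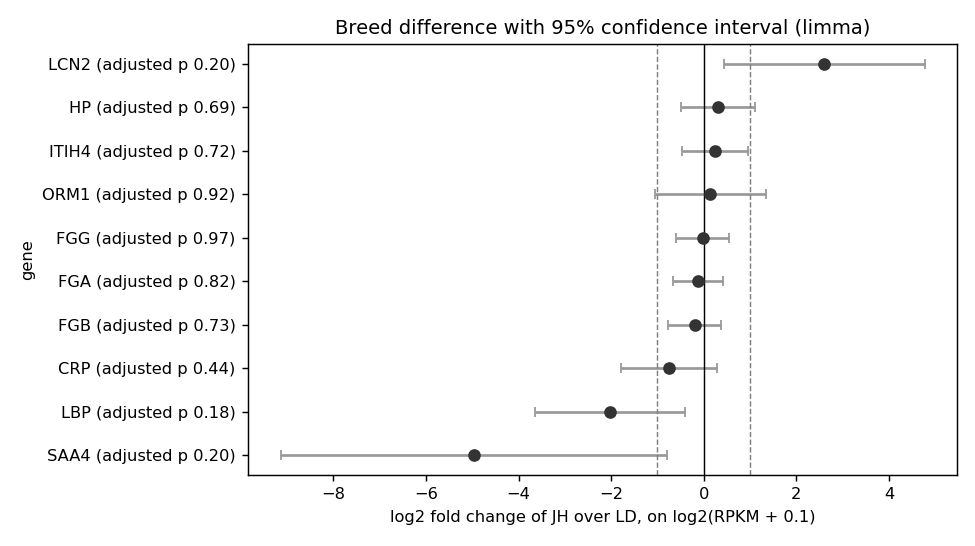
Log2FC, JH relative to LD, for each gene, with its 95% interval from limma and its adjusted p, on log2(RPKM + 0.1). Dashed lines mark the limit of 1 in either direction. The intervals of SAA4, LBP and LCN2 do not reach 0 but are wide, and those of FGA, FGB, FGG and ITIH4 stay within the limit.

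JH2 held the highest JH value of 6 of the 10 genes, namely HP, ITIH4, CRP, LBP, LCN2 and FGG, and the lowest JH value of SAA4 and FGB. Over all tested genes JH2 was the highest JH library in 39.2%, JH1 in 42.7% and JH3 in only 18.1%. LD3 was the highest LD library in 14.7%. JH2 also stood apart in lymphocyte markers. The summed level of 13 lymphocyte markers was 173 RPKM in JH2, against 42.5 and 46.8 RPKM in the other JH libraries and 62.2 to 67.3 RPKM in LD. Of the 12 tested lymphocyte markers 10 were highest in JH2, among them CD2 with 20.7 RPKM against 3.40 to 7.90 RPKM elsewhere. The exceptions were MS4A1, highest in LD1, and CD4, at 3.55 RPKM in JH2 and 6.02 to 13.5 RPKM in LD. The log2FC of CD4 was -1.64 (adjusted p = 0.0585). The share of all tested genes that were highest in JH2 among the 6 libraries was not counted. The summed level of 11 macrophage markers was 2262 RPKM in JH2 and 1046 to 1788 RPKM in the other libraries, with 5 of the 9 tested highest in JH2, and VSIG4, CD5L, CD14 and CSF1R not. The neutrophil sum of JH2 was below those of LD2 and LD3, and 1 of 8 tested neutrophil markers was highest in JH2. Among 9304 genes with a symbol, the 3 whose log2 levels followed HP most closely over the 6 libraries were CD53 (Pearson r = 0.98), SLC37A1 (r = 0.97) and CD2 (r = 0.97). These are the highest of many correlations over few libraries, and all 3 genes were highest in JH2. The part of the lymphocyte difference in the JH2 levels was not tested. For FGB the closest were GIGYF2 (r = 0.97), AVL9 (r = 0.96) and PTGFRN (r = 0.96).

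**Figure D4:**
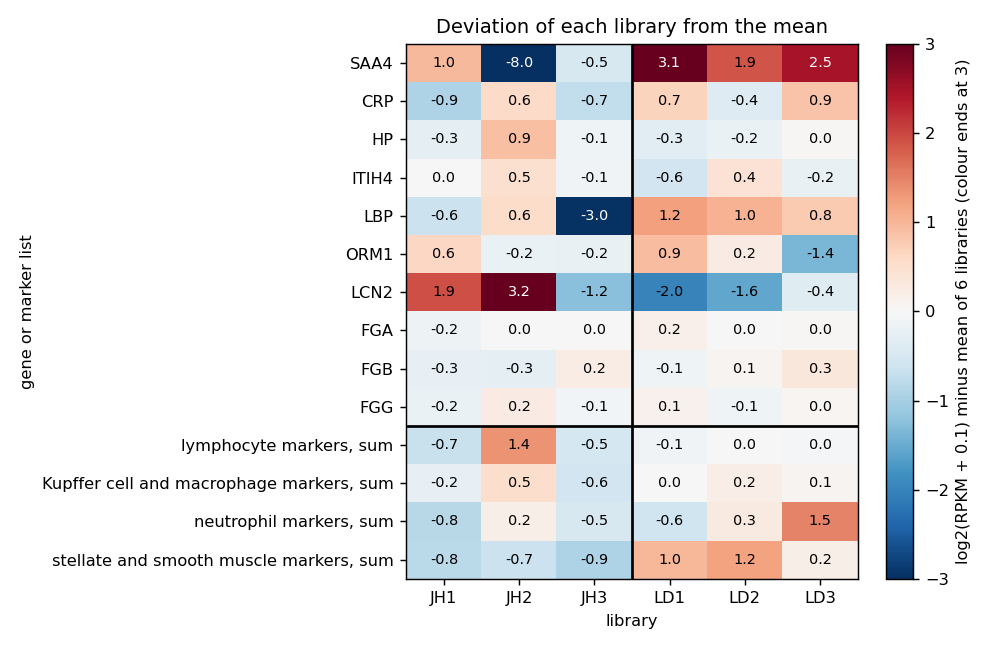
Log2(RPKM + 0.1) of each gene in each library minus the mean of the 6 libraries, with the value printed in each cell and the colour ending at 3, above the same for the summed level of 4 marker lists. JH2 is high in HP, LCN2 and the lymphocyte markers, JH3 is low in LBP, and the stellate cell markers are low in all JH libraries.

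Of 46 further genes listed as positive acute phase genes, 35 were in the tables and 32 were tested. All gene lists were chosen with earlier results of these data known, so their counts are descriptions and not tests. Without adjustment 14 of the 32 had p below 0.05 in limma, 5 higher and 9 lower in JH, against 8.34% and 9.51% of all tested genes. The values of the breeds did not overlap in 5 with JH higher and 8 with JH lower, against 10.8% and 12.5%. The median log2FC was -0.45, with 7 above 0 and 25 below. Past the threshold 2 were higher and 2 were lower in JH, against 1.02% and 1.36% of all tested genes. Higher in JH were HAMP, the iron hormone hepcidin, with log2FC of 4.58 (SE 0.80, adjusted p = 0.0269), and the metallothionein gene MT1A with 4.44 (SE 0.37, adjusted p = 0.001). HAMP was at 515, 226 and 165 RPKM in JH and 2.47, 25.7 and 21.2 RPKM in LD. Lower in JH were FN1, the matrix and plasma protein fibronectin, with -1.28 (SE 0.28, adjusted p = 0.0489), and TFRC, the transferrin receptor, with -2.82 (SE 0.51, adjusted p = 0.0301). HAMP, MT1A and TFRC also belong to iron and zinc handling. The largest differences among the genes not called were those of APCS, given above, of MBL2, a mannose binding lectin, with -2.05 (adjusted p = 0.107), of the methyltransferase gene NNMT with 1.51 (adjusted p = 0.187) and of VNN1 with 0.99 (adjusted p = 0.225). Stellate cells and smooth muscle also express FN1. The summed level of 12 of their markers was 102 to 124 RPKM in JH and 221 to 448 RPKM in LD. Of 11 tested markers 4 were called lower in JH (COL1A1, COL1A2, COL3A1 and LRAT), against 1.36% of all tested genes. Their part in the FN1 difference was not tested.

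Negative acute phase genes are those whose expression in liver falls in inflammation. Of 20 tested, 3 were called, all lower in JH, against 1.36% of all tested genes. The median log2FC was -0.38, with 7 above 0 and 13 below. Without adjustment 10 had p below 0.05 in limma, 2 higher and 8 lower in JH, against 8.34% and 9.51% of all tested genes. The values of the breeds did not overlap in 4 with JH higher and 7 with JH lower, against 10.8% and 12.5% of all tested genes. The 4 included APOA1 with log2FC of 0.90 (adjusted p = 0.203) and CYP2C33 with 0.99 (adjusted p = 0.0603). FETUB, a cystatin type protease inhibitor, had log2FC of -2.83 (SE 0.27, adjusted p = 0.00203). SERPINA6, corticosteroid-binding globulin, had -4.33 (SE 0.22, adjusted p = 3.2e-05). HRG, the histidine-rich glycoprotein of plasma, had -2.29 (SE 0.25, adjusted p = 0.00353). Albumin was at 33599, 27533 and 28465 RPKM in JH and 52134, 37742 and 53893 RPKM in LD, lower in all JH pigs, with log2FC of -0.67 (adjusted p = 0.258). Transferrin, encoded by TF, had -1.13 (adjusted p = 0.153), IGFALS had -1.61 (adjusted p = 0.183), CYP2E1 had -1.16 (adjusted p = 0.219) and PON3 had 1.23 (adjusted p = 0.543), and none of these passed the threshold.

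**Figure D5:**
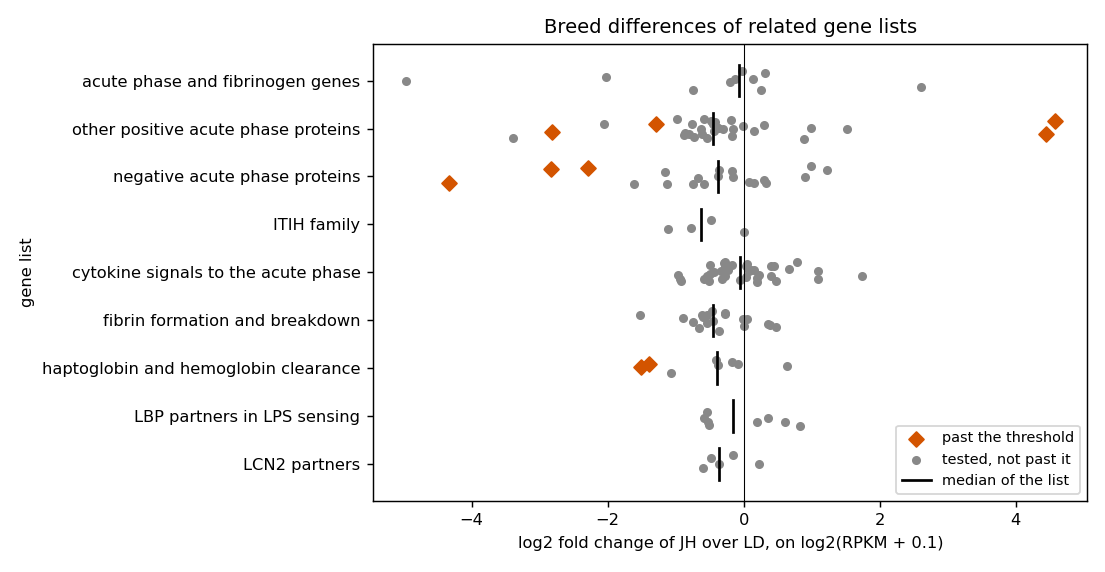
Log2FC, JH relative to LD, of each tested gene, 1 row per gene list, with orange diamonds for genes past the threshold and black lines for the median of the list. The 10 acute phase and fibrinogen genes hold none past the threshold, and the positive and negative acute phase lists hold 4 and 3.

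Of 50 genes of the cytokine signals that reach the acute phase genes, 37 were tested and none was called, with a median log2FC of -0.05. Without adjustment 7 of the 37 had p below 0.05 in limma, near the 17.9% of all tested genes. The cytokine genes IL6, IL1B and OSM were under the filter, at no more than 0.39 RPKM in any library, and TNF was at 0.52 to 2.71 RPKM. SOCS3 and CEBPB were listed at 0 in all libraries. STAT3 was at 53.4, 66.0 and 35.0 RPKM in JH and 65.7, 75.0 and 73.4 RPKM in LD, log2FC of -0.52 (adjusted p = 0.371). The largest differences were those of FKBP5, a glucocorticoid-induced chaperone, with 1.74 (adjusted p = 0.092), CEBPG with 1.09 (adjusted p = 0.0521), SOCS1, a feedback inhibitor of JAK kinases, with 1.09 (adjusted p = 0.14) and IL6R, the interleukin 6 receptor, with -0.96 (adjusted p = 0.121).

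The partners of single genes gave few calls. None of the 8 tested genes of lipopolysaccharide sensing with LBP was called. Without adjustment 1 had p below 0.05 in limma, against 17.9% of all tested genes. CD14 was at 432, 351 and 171 RPKM in JH and 403, 559 and 355 RPKM in LD, and the largest difference was that of LY96, with 0.83 (adjusted p = 0.232). Of the inter-alpha-trypsin inhibitor family around ITIH4, 4 were tested and none was called. Without adjustment 2 had p below 0.05 in limma, against 17.9% of all tested genes. Their log2FC was -0.78 for ITIH1 (adjusted p = 0.252), -1.11 for ITIH2 (adjusted p = 0.0702), 0.01 for ITIH3 (adjusted p = 0.995) and -0.47 for AMBP (adjusted p = 0.462). ITIH1, ITIH3 and ITIH4 stand in a row in Sscrofa11.1. Of 8 tested genes listed for haptoglobin and hemoglobin clearance, 2 were called lower in JH, against 1.36% of all tested genes. These were BLVRA, which makes bilirubin, with -1.50 (SE 0.23, adjusted p = 0.0135), and the globin gene HBB with -1.39 (SE 0.29, adjusted p = 0.0459). HBB was at 98.3, 89.1 and 119 RPKM in JH and 389, 210 and 230 RPKM in LD. HBB is a red cell gene that encodes the globin itself and not a protein that clears it. The 5 other erythroid markers in the tables summed to 1.03 to 3.60 RPKM in JH and 4.04 to 5.19 RPKM in LD. Among them ALAS2, the heme synthesis enzyme of red cells, had log2FC of -1.36 (adjusted p = 0.189), and the part of red cells in the HBB difference was not tested. The haptoglobin receptor gene CD163 was listed at 0 in all libraries, and the hemopexin gene HPX had -0.37 (adjusted p = 0.567). None of the 5 tested genes listed with LCN2 was called, 0 had p below 0.05 without adjustment in limma, and its receptor gene SLC22A17 had -0.59 (adjusted p = 0.358).

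Of 29 genes of fibrin formation and breakdown, 19 were tested and none was called. Without adjustment 5 had p below 0.05 in limma, all lower in JH, against 9.51% of all tested genes on that side. The median log2FC was -0.45, with 14 of 19 below 0. The values of the breeds did not overlap in 9 of them, all lower in JH, against 12.5% of all tested genes. The largest differences were those of PLAT, tissue plasminogen activator, with -1.52 (adjusted p = 0.129), SERPIND1, heparin cofactor II, with -0.89 (adjusted p = 0.126), PROC, protein C, with -0.74 (adjusted p = 0.163), and VWF, a marker of endothelium, with -0.66 (adjusted p = 0.406). PLAT was at 1.99 RPKM or less. Prothrombin, encoded by F2, was at 815, 986 and 756 RPKM in JH and 970, 1668 and 1166 RPKM in LD, log2FC of -0.55 (adjusted p = 0.345). LRAT, a stellate cell gene that stands beside FGG in Sscrofa11.1, was lower in JH with log2FC of -1.72 (SE 0.34, adjusted p = 0.0384), while the 3 fibrinogen genes beside it were not called.

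Small RNA values were RPM, miRNA reads divided by the clean read total, and here log2FC is that of LD relative to JH. Of 29 miRNA names listed for fibrinogen or inflammation, 20 were in the tables and 19 were tested. Calls needed p below 0.05 without adjustment and the same fold limit. There were 2 listed miRNAs called higher and 1 lower in LD, against 10.4% and 2.07% of the 241 tested miRNAs (12.4% in all). All 3 also passed with adjusted p, as did 9.54% of the tested miRNAs, 8.71% higher and 0.83% lower in LD. Members of the miR-29 family can lower fibrinogen mRNA in cultured liver cells. ssc-miR-29b was at 46.2, 36.4 and 24.8 RPM in JH and 12.8, 9.83 and 13.9 RPM in LD, log2FC of -1.49 (SE 0.27, adjusted p = 0.00782). ssc-miR-29a, with the far higher level, was at 1170, 736 and 953 RPM in JH and 833, 851 and 920 RPM in LD with log2FC of -0.11 (adjusted p = 0.76). ssc-miR-146b, of a family that dampens NF-kB signals by way of TRAF6 and IRAK1, was at 21.6, 36.6 and 22.2 RPM in JH and 45.4, 55.1 and 63.3 RPM in LD, log2FC of 1.04 (SE 0.26, adjusted p = 0.0237). ssc-miR-146a-5p had log2FC of 0.82 (adjusted p = 0.091), and TRAF6 and IRAK1 mRNA had, for JH relative to LD, log2FC of -0.29 and 0.03 (adjusted p = 0.684 and 0.969). The third was ssc-miR-34a, with log2FC of 2.92 (adjusted p = 7.4e-05). The largest differences among the rest were those of ssc-let-7c with 0.69, ssc-miR-125b with 0.59 and ssc-let-7a with 0.52 (adjusted p = 0.0954, 0.144 and 0.264).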

How the data were processed

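Liver mRNA and small RNA of 3 JH and 3 LD pigs were sequenced, and groups and replicates were taken from the sample titles. For mRNA, the authors aligned 50 bp single reads to Sus scrofa 10.2 with Tophat 2.0.13, used gfold to count the reads of each gene, and deposited them as RPKM. For miRNA, the authors deposited RPM values, reads scaled to clean reads. No deposited file holds read numbers, so limma 3.58.1 in R 4.3.3 (lmFit, eBayes with a trend, Benjamini-Hochberg adjustment, two-sided) was used in place of a count test, on log2(RPKM + 0.1) and on log2(RPM + 0.5), the latter for miRNAs at 1 RPM or more in at least 3 libraries. All fits covered the whole table. One identifier listed under 2 rows was left out. Nothing states that the pigs came from separate litters, so p-values measure the spread between these pigs.

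Read totals, gene lengths and reads were recovered from RPKM by searching for whole reads, and gave reads for 7 of the 10 genes. HP, FGA and FGG were not resolved. Recovered reads served as a description of depth. Clean reads of the small RNA libraries, recovered from the RPM in the same way, were 10672375 to 13932322. The code was tested on simulated data.

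The genes and lists were chosen with earlier results of these data known. Named were all 10 genes, the genes of each list past the threshold and up to 4 more with the largest absolute fold change. Other names (such as ALB, STAT3, F2, CD14, S100A8, HPX, ssc-miR-29a and neighbouring genes) were chosen after their values were seen. Likeness was the Pearson r over 6 libraries. Gene order came from RefSeq for Sscrofa11.1. As the files use an earlier build, no coordinates are given. Alternatives were other pseudocounts, no filter, quantile normalization, median scaling, rescaling to a common sum without RN18S, no trend, the replicate block and leaving out each library.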

Additional observations from a re-analysis of the deposited data

How the results depend on the processing

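The count of 0 called among the 10 genes held in the 8 other settings of the mRNA fit and with no fold change limit. It became 3 with an unadjusted p and the fold change limit (SAA4, LBP and LCN2), and ranged from 0 to 1 when single libraries were left out, the 1 being LCN2 without JH3. SAA4, CRP, LBP, LCN2, ITIH4, FGA and FGB kept their direction in all 14 alternatives, with adjusted p from 0.0835 to 0.387 for SAA4 and from 0.069 to 0.361 for LBP. Of those not close to the threshold, ITIH4 ranged from 0.02 to 0.53, FGA from -0.25 to -0.08 and FGB from -0.36 to -0.08. The sign changed for HP, to -0.06 without JH2 (range to 0.53), for ORM1, to -0.13 without JH1 and -0.51 without LD3 (range to 0.64), and for FGG, to 0.067 without JH1, 0.013 without JH3 and 0.027 without LD1 (range from -0.16). The cause was not tested. Without LD1, 0 of the 10 genes had an unadjusted p below 0.05, against 3 with all libraries. LCN2 was not among them without JH1, JH2, LD1 or LD2. The 310 calls over all genes became 199 with a pseudocount of 0.01 and 200 with no filter. With 1 library left out, the calls rose only without JH3, to 406. They fell to 164 without JH1, 150 without JH2, 79 without LD1, 114 without LD2 and 149 without LD3. Those fits used fewer samples. Rescaling without RN18S moved the median log2 fold change of all genes from 0.04 to -0.08, and no direction of the 10 genes changed with it.

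The ratio of FGA to FGB between breeds, 0.074 on the log2 scale (JH minus LD), ranged from -0.060 to 0.23 with 1 library left out, that of FGG to FGB, 0.17, from -0.046 to 0.37, and that of FGA to FGG, -0.098, from -0.16 to 0.0084. The share of the 10 genes in the summed RPKM was 3.71% in JH and 3.75% in LD, and 3.85% and 3.82% without RN18S. The listed miRNAs called, 3, ranged from 2 to 4 over all alternatives.

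The replicate number pairs no pigs by the labels. Deviations of same-numbered libraries from their breed mean correlated across genes at -0.016, 0.052 and 0.18. Pairs with unlike numbers gave -0.132 to 0.081, so JH3 with LD3, at 0.18, was the highest of all pairs. With the replicate block 253 genes were called in all, and 0 of the 10 genes were called, with adjusted p of 0.115 for SAA4, 0.112 for LBP and 0.203 for LCN2. Reads limit LCN2 and ORM1, at 5 to 247 and 32 to 147 reads per library.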

Other observations

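Genes next to HP in Sscrofa11.1 were listed without signal. Of 6 neighbours within 3 genes on either side, 5 were listed at 0 in all 6 libraries and the other was not found in the tables. The 5 include DHODH, an enzyme of pyrimidine synthesis, and DHX38, a splicing factor. HP itself was at 8417 RPKM or more. Near SAA4, HPS5 was at 2.40 to 4.14 RPKM and SAAL1 at 3.24 to 6.02 RPKM, in JH2 at 3.75 and 5.0 RPKM, where SAA4 itself was listed at 0. PTGES2, the gene next to LCN2, was at 11.4, 13.5 and 8.90 RPKM in JH and 8.72, 14.8 and 8.48 RPKM in LD.

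Other cell type lists were examined beside these genes. Of the bile duct markers 1 of 3 tested was called lower in JH, against 1.36% of all tested genes. It was EPCAM, with a log2 fold change of -1.55 (adjusted p = 0.0301). None of 9 tested endothelial markers, 9 tested macrophage markers, 12 tested lymphocyte markers or 8 tested hepatocyte markers was called by limma. In that order, 3, 3, 1 and 2 of them were at p below 0.05 without adjustment, against 17.9% of all tested genes. Of the 2 tested erythroid markers, HBB was called lower in JH, against the same 1.36% of all tested genes.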
